A study of Saccharomyces cerevisiae with 4 samples.

Results

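Transcripts of 10 yeast mannosyltransferase genes were compared between a Saccharomyces cerevisiae strain labelled ΔYGP1 and its parent. They were chosen by locus tag: the protein O-mannosyltransferase genes PMT1 (YDL095W), PMT2 (YAL023C), PMT3 (YOR321W), PMT4 (YJR143C), PMT5 (YDL093W) and PMT6 (YGR199W), and the outer-chain genes OCH1 (YGL038C), MNN1 (YER001W), MNN2 (YBR015C) and MNN9 (YPL050C). All 10 are among the 6484 features of the authors' deposited table. One strain has the genotype BGL-6Kl with ΔYGP1 and its parent has the genotype BGL-6Kl, so both carry BGL-6Kl. The labels do not spell out the alleles behind that name, the strain background or how YGP1 was deleted. Cultures of both were kept for 48 h in the rich glucose medium YPD, at 30 °C with shaking at 200 rpm. RNA came from 2 biological replicates per strain, at a time the series chose because an activity measured on the cells, called BGL, had begun to differ between the strains.

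Protein O-mannosylation starts in the endoplasmic reticulum (ER), where the Pmt enzymes move mannose from a lipid carrier, dolichol phosphate mannose, to serine and threonine residues of secreted and membrane proteins. Pmt1 and its relative Pmt5 pair with Pmt2 and its relative Pmt3, whereas Pmt4 pairs with itself. N-linked glycans are instead extended in the Golgi: Och1 starts the outer chain, complexes that contain Mnn9 lengthen its backbone, Mnn2 starts the side branches, and Mnn1 adds terminal mannose. Cell wall mannoproteins of yeast carry both kinds of sugar.

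The deposited table gives a mean normalised read count per strain, which has no SD. Whole reads of the 2 libraries behind each mean were recovered from it for 6183 features, the 10 mannosyltransferase genes among them. The libraries are called A and B by depth, A being the deeper, which says nothing of their replicate number in the labels. Recovered reads, which leave out most of the most abundant features, were summed over the features recovered in each strain. The sums were 10154385 and 7419301 in ΔYGP1-labelled libraries A and B (6197 features) and 14987529 and 12550102 in the parental libraries (6370 features). The parental sums hold 81 features with a mean above 20000 and the ΔYGP1-labelled sums 0, so they do not compare depth between strains. YGP1 (YNL160W), the gene named in the label, was lower but not absent: its mean was 18171 in the ΔYGP1-labelled strain and 62470 in the parent, 29.1% of the parental level (the authors' deposited table: adjusted p = 2.88e-08). Which part of the gene those reads cover is not known, so the check of the label is incomplete, and directions below are those of the strain labelled ΔYGP1. Between the libraries of one strain, the median absolute log2 difference of 5266 well-covered features was 0.28 in the ΔYGP1-labelled strain and 0.18 in the parent.

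PMT1, PMT3 and PMT5 rose in the ΔYGP1-labelled strain, by 1.65-fold, 1.79-fold and 2.02-fold (the authors' deposited table: adjusted p = 0.044, 0.0421 and 0.0135). No gene of the 10 passed the test in the other direction, and the remaining 7 did not pass. The 3 calls among 10 stand beside 20.0% of all listed features called in either direction, with 9.65% called higher and 10.3% called lower. The median log2 fold change was 0.58 over the 10 genes, 0.70 over the 6 PMT genes, 0.10 over the 4 Golgi genes and 0.02 over all listed features. In 9 of the 10 genes the libraries of the strains did not overlap, 8 higher and 1 lower, where 66.2% of the recovered features did not overlap, 33.2% being higher and 33.0% lower. With so many features separated, the separation alone says little about these genes. In bulk RNA of a culture, more cells that express a gene and more RNA per cell cannot be told apart.

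**Figure D1:**
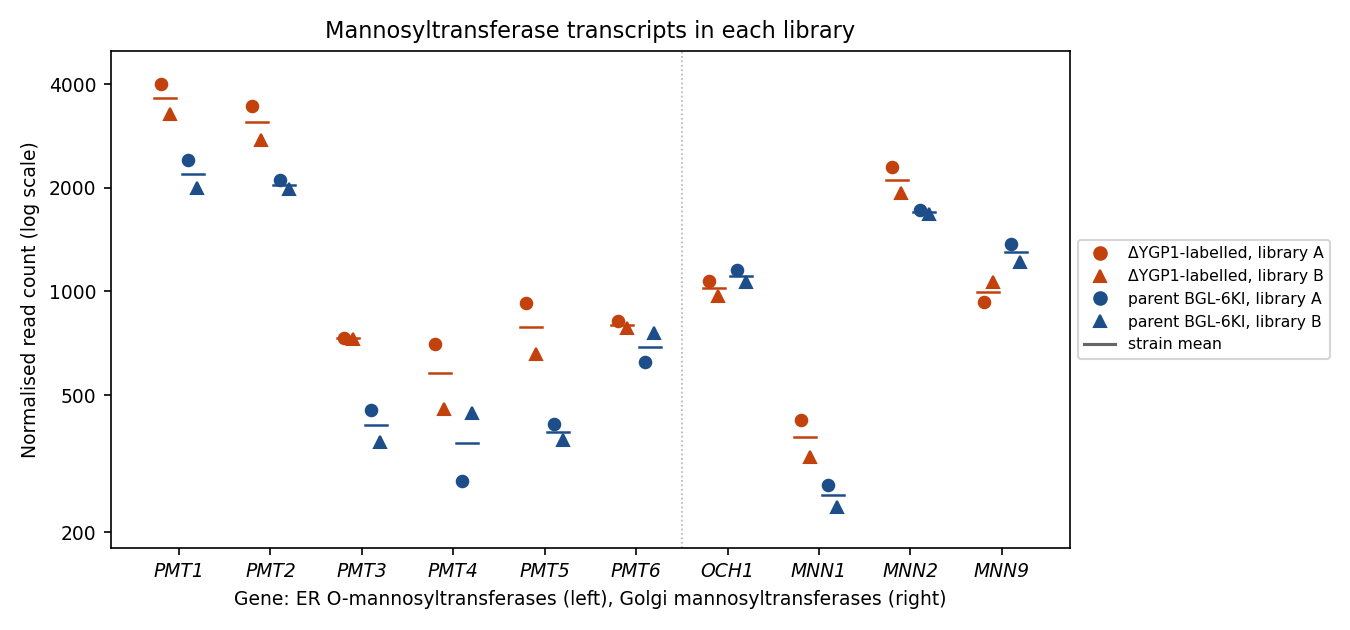
Normalised read count (log axis) of each of the 10 genes in the ΔYGP1-labelled libraries (orange, left of each pair) and the parental libraries (blue), with library A as circles, library B as triangles and the strain mean as a line. All 6 PMT genes lie higher in both ΔYGP1-labelled libraries, narrowly for PMT4 and PMT6, while OCH1 overlaps only just and MNN9 lies lower.

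Among the partners of the main ER complex, PMT1 had 4005 and 3269 normalised reads in ΔYGP1-labelled libraries A and B, against 2405 and 1993 in parental libraries A and B. Both values of the ΔYGP1-labelled strain lie above both parental ones, the closest pair being 1.36-fold apart. PMT2, whose product pairs with Pmt1, had 3455 and 2755 in the ΔYGP1-labelled libraries, against 2104 and 1977 in the parental libraries. These values do not overlap either, with the closest pair 1.31-fold apart. PMT2 was nevertheless outside the threshold (the authors' deposited table: log2 fold change 0.61, adjusted p = 0.0967). PMT1, at 0.044, was the called gene nearest the threshold, and PMT2 the nearest uncalled one.

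The second Pmt pair is encoded by PMT5 and PMT3. PMT5 had 922.6 and 657.6 normalised reads in ΔYGP1-labelled libraries A and B, against 413.0 and 369.4 in parental libraries A and B. This was the largest of the 10 fold changes (log2 fold change 1.01), and the only one of 2-fold or more, a size that 21.8% of all listed features reached in either direction. PMT3 had 734.2 and 727.9 in the ΔYGP1-labelled libraries, against 452.8 and 365.3 in the parental libraries. The ΔYGP1-labelled libraries nearly coincide here, and the lower of them is 1.61-fold above the higher parental one.

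PMT4, whose product acts as a homodimer and prefers membrane-anchored proteins, had 705.8 and 455.6 normalised reads in ΔYGP1-labelled libraries A and B, against 280.5 and 444.2 in parental libraries A and B. The 2 libraries differ 1.55-fold within the ΔYGP1-labelled strain and 1.58-fold within the parent, and the closest values of the strains are 1.03-fold apart. The log2 fold change of 0.68 did not pass (the authors' deposited table: adjusted p = 0.264). PMT6, a relative of PMT2, had 819.5 and 783.1 in the ΔYGP1-labelled libraries, against 623.4 and 757.6 in the parental libraries. Its difference was the smallest of the PMT genes (the authors' deposited table: log2 fold change 0.21, adjusted p = 0.667). PMT7 (YDR307W), a homolog outside the 10 whose function is not established, had 411.5 and 308.7 in the ΔYGP1-labelled libraries and 399.1 and 529.3 in the parental libraries, which overlap (the authors' deposited table: log2 fold change -0.37, adjusted p = 0.567).

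The 4 Golgi genes did not pass, and their differences had both signs. OCH1, which starts the outer chain, had 1070 and 972.6 normalised reads in ΔYGP1-labelled libraries A and B, against 1151 and 1068 in parental libraries A and B. It is the only one of the 10 genes whose libraries overlap, and only just, with ΔYGP1-labelled library A (1070) barely above parental library B (1068). Its difference did not pass (the authors' deposited table: log2 fold change -0.12, adjusted p = 0.861). The sign of that fold change turns with the scaling, to 0.03 when strain totals are made equal. MNN9, a shared subunit of the complexes that lengthen the backbone, had 928.9 and 1065 in the ΔYGP1-labelled libraries, against 1375 and 1221 in the parental libraries. Both ΔYGP1-labelled values are lower, unlike in the PMT genes, but the difference did not pass (the authors' deposited table: log2 fold change -0.38, adjusted p = 0.364). MNN2, the branch-starting enzyme, had 2294 and 1931 in the ΔYGP1-labelled libraries and 1725 and 1673 in the parental libraries (the authors' deposited table: log2 fold change 0.31, adjusted p = 0.458). MNN1, the terminal mannosyltransferase and the lowest of the 10, had 423.1 and 331.3 in the ΔYGP1-labelled libraries and 274.5 and 236.6 in the parental libraries (the authors' deposited table: log2 fold change 0.56, adjusted p = 0.229). For MNN2 and MNN1 the ΔYGP1-labelled libraries lie above the parental ones without passing the test.

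**Figure D2:**
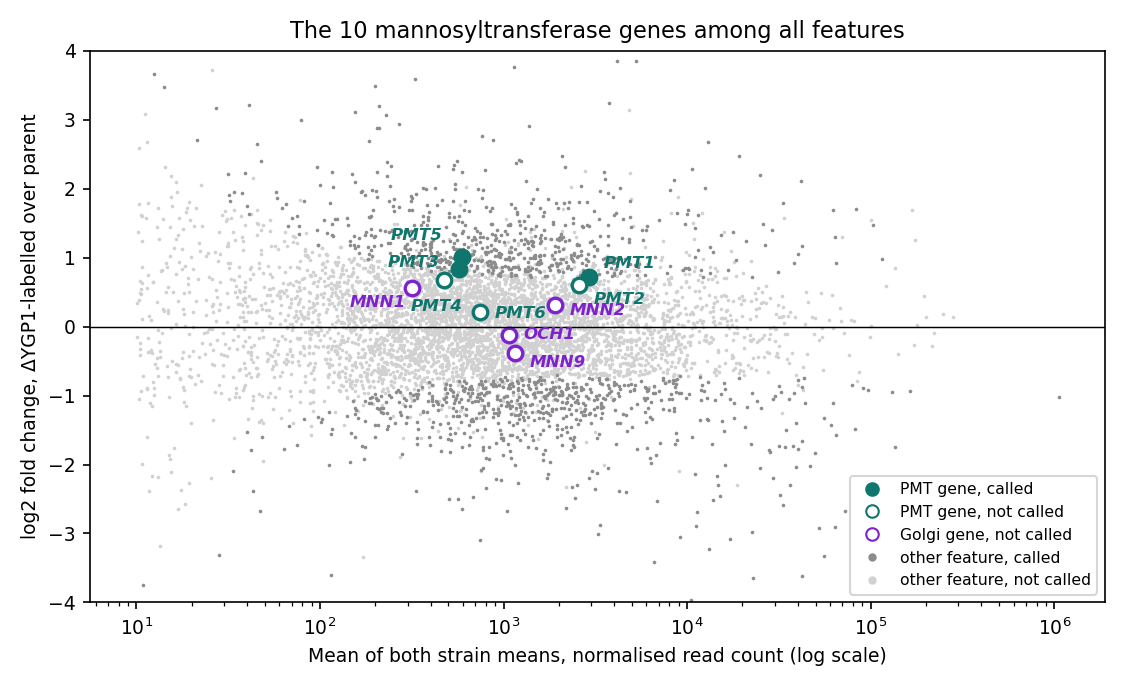
Authors' log2 fold change (ΔYGP1-labelled over parent) against the mean of both strain means (log axis) for features whose mean reaches 10, within the plotted range of fold changes; darker points were called at an adjusted p below 0.05. PMT1, PMT3 and PMT5 (filled) sit at the inner edge of the called features, and the other 7 genes (open) within the uncalled ones.

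A moderated test on the recovered libraries (limma on log2(normalised read count + 1), Benjamini-Hochberg adjustment over 6115 features), added to show the spread between libraries, also passed PMT1, PMT3 and PMT5 and none of the other 7, beside 28.7% of all features fitted. The authors' calls come from these 4 libraries too, so this is no separate evidence. The log2 difference was 0.72 for PMT1 (SE 0.21, adjusted p = 0.0278), 0.84 for PMT3 (SE 0.22, adjusted p = 0.0176) and 0.99 for PMT5 (SE 0.24, adjusted p = 0.0116). PMT2 stood just outside, at 0.60 (SE 0.21, adjusted p = 0.0535). Standard errors of the other 6 ran from 0.20 for OCH1 and MNN2 to 0.29 for PMT4. Without parental library B, when 13.7% of all features passed, limma passed 1 gene, PMT4 (log2 difference 1.01, adjusted p = 0.0303), and lost PMT1, PMT3 and PMT5 (adjusted p = 0.303, 0.17 and 0.0513). Without parental library A, when 22.4% of all features passed, it passed PMT3 and PMT5 and lost PMT1 (adjusted p = 0.0689), and the log2 difference of PMT4 was then 0.35. Without ΔYGP1-labelled library A it passed 0 features of the table (4 of the 10 genes at an unadjusted p below 0.05), and likewise 0 without ΔYGP1-labelled library B (6 of the 10). Those counts depend on low features: among features whose mean reached 50, a filter added after seeing the data, it passed 3 of the 10 genes and 37.2% of all without library A, and 5 of the 10 and 36.4% of all without library B. Which PMT genes passed thus varied between these fits. Each of them leaves 1 library in a strain, so the spread between libraries comes from the other strain alone. A lost or gained call therefore cannot be assigned to the library left out. All 6 PMT differences stayed above 0 in each of these fits.

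ΔYGP1-labelled library A was higher than library B in 9 of the 10 genes, MNN9 being the exception, against 57.6% of the well-covered features. Parental library A was higher than library B in 8 of the 10, PMT4 and PMT6 being the exceptions, against 51.0% of the well-covered features. The part that these culture or library differences have in the strain differences was not tested. Whole reads per library ran from 228 for MNN1 to 4506 for PMT1, so counting error alone was 6.62% at the lowest value and 1.49% at the highest.

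Levels of different genes were compared as normalised reads per kb of coding length (lengths from the R64 reference annotation, in which all 10 genes were found). In the ΔYGP1-labelled strain PMT1 led with a mean of 1482 per kb, followed by PMT2 at 1362 and MNN2 at 1178. MNN9 had 839.4, OCH1 707.8, PMT5 354.0, PMT6 351.5, PMT3 323.2, PMT4 253.7 and MNN1 164.8. In that order PMT1 and PMT2, PMT2 and MNN2, and PMT5 and PMT6 overlap between libraries, while the other neighbours do not. Within each ΔYGP1-labelled library PMT1 nevertheless lay above PMT2 and PMT2 above MNN2, whereas PMT5 and PMT6 changed order between the libraries. In the parent MNN9 led with 1093 per kb, before MNN2 at 946.9, PMT1 at 896.0, PMT2 at 894.9, OCH1 at 768.7, PMT6 at 302.8, PMT3 at 180.8, PMT5 at 175.3, PMT4 at 158.3 and MNN1 at 111.6. There the overlapping neighbours are MNN2 and PMT1, PMT1 and PMT2, PMT3 and PMT5, and PMT5 and PMT4, and each of these pairs changed order between the libraries. By level per kb PMT1 lay above 68.7% of 5853 protein-coding genes in the ΔYGP1-labelled strain and above 55.9% in the parent, and MNN9 above 55.0% in the ΔYGP1-labelled strain and 61.1% in the parent.

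Ratios within a library do not depend on its scaling. The summed level of the 6 PMT genes was 4553 and 3699 normalised reads per kb in ΔYGP1-labelled libraries A and B, against 2684 and 2532 in parental libraries A and B. The summed level of the 4 Golgi genes was 2987 and 2792 in the ΔYGP1-labelled libraries and 3036 and 2804 in the parental libraries. The PMT sum was thus 1.52 and 1.32 times the Golgi sum in the ΔYGP1-labelled libraries and 0.884 and 0.903 times that sum in the parental libraries. The PMT sums do not overlap between the strains, whereas the Golgi sums do. Of single recovered features 66.2% did not overlap, so the separation alone says little. Within the Golgi sum MNN1 and MNN2 lay higher and MNN9 lower, and these partly offset each other. The 20 other Golgi mannosyltransferase genes, outside this sum, had a median log2 fold change of -0.37. With 2 libraries against 2 an exact two-sided permutation test cannot go below p = 0.333, so these sums are a description.

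PMT1 and PMT2 supplied most of the PMT sum in all 4 libraries. Together they made up 69.1% and 68.7% in ΔYGP1-labelled libraries A and B and 70.9% and 66.3% in parental libraries A and B. PMT5 supplied 9.08% and 7.96% in the ΔYGP1-labelled libraries and 6.89% and 6.54% in the parental libraries, without overlap. PMT6 supplied 7.89% and 9.28% in the ΔYGP1-labelled libraries and 10.2% and 13.1% in the parental libraries, also without overlap but lower. Only its share was lower: its own level was not (log2 fold change 0.21), and the other PMT genes had larger fold changes. The share of PMT2 was slightly lower too, without overlap. It was 33.3% and 32.7% in the ΔYGP1-labelled libraries and 34.4% and 34.2% in the parental libraries. The shares of PMT1, PMT3 and PMT4 overlapped. Since 66.2% of single recovered features did not overlap, these separations alone say little. The level ratio of the partners PMT1 and PMT2 was 1.08 and 1.10 in the ΔYGP1-labelled libraries and 1.06 and 0.936 in the parental libraries.

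**Figure D3:**
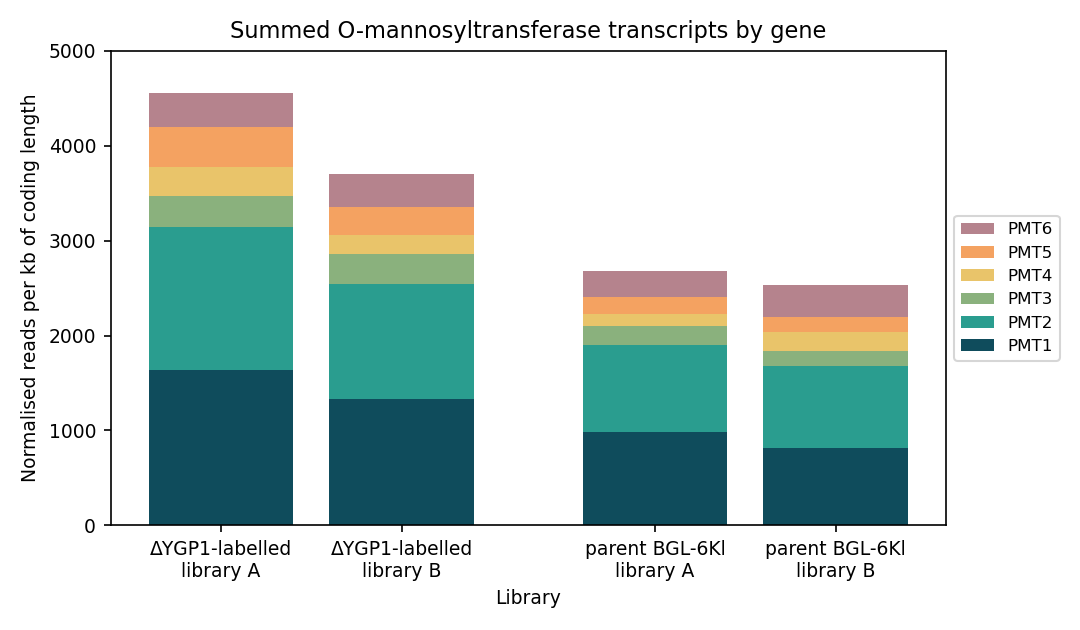
Normalised reads per kb of coding length of the 6 PMT genes, stacked by gene, in the 2 ΔYGP1-labelled libraries (left) and the 2 parental libraries (right). The stacks reach 4553 and 3699 in the ΔYGP1-labelled libraries and 2684 and 2532 in the parental ones, with PMT1 and PMT2 the largest parts of each.

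PMT1 and PMT5 are next to each other in the copy of the R64 annotation used here, and both rose. That copy lacks some features of the deposited table, among them YDL094C, numbered between PMT1 (YDL095W) and PMT5 (YDL093W), and YDL096C, numbered on the other side of PMT1. Their position and any overlap with the PMT genes were not determined, and their means were close to 0: 3.84 in the ΔYGP1-labelled strain and 1.56 in the parent for YDL094C, and 0.444 in the ΔYGP1-labelled strain and 0 in the parent for YDL096C (the authors' deposited table; neither was called). The annotated genes on either side of the pair, the proteasome gene RPN6 and the signal recognition particle gene SRP14, had log2 fold changes of -0.36 and -0.26 and were not called (the authors' deposited table: adjusted p = 0.45 and 0.602). No other gene in that copy of the annotation overlaps any of the 10. Of the 18 other annotated genes next to one of them, 3 were called higher and 1 lower, a share of 22.2% that is near the 20.0% of all listed features. They were LTE1 beside PMT2 (2.28-fold), YPP1 beside PMT6 (3.33-fold) and ARL3 beside MNN9 (2.03-fold), which rose, and GRX7 beside MNN2 (1.98-fold lower), which fell (the authors' deposited table: adjusted p = 0.0159, 6.57e-07, 0.0155 and 0.0171).

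Other genes of the same pathways changed in both directions. Of 68 genes in 6 lists, all measured, 5 rose and 9 fell, which is 14 calls against the 20.0% called among all features. Of all listed features 9.65% were called higher and 10.3% lower. The median log2 fold change of the 68 genes was 0.02. Libraries were recovered for 12 of the 14 called genes, and limma passed all 12, but only ANP1, ALG3, ROT2 and KRE9 without parental library B and none without either ΔYGP1-labelled library. Among features whose mean reached 50, it passed 10 of the 12 without ΔYGP1-labelled library A and 11 without library B. Among 11 genes that supply the mannose donor, 1 rose and 1 fell (median 0.15). PMI40, the phosphomannose isomerase that leads sugar into the mannose pathway, was 1.78-fold higher, with 1428 and 1324 normalised reads in ΔYGP1-labelled libraries A and B against 871.0 and 673.5 in the parental libraries (the authors' deposited table: adjusted p = 0.0294). RER2, which makes the dolichol precursor, was 1.90-fold lower, with 1010 and 1570 in the ΔYGP1-labelled libraries against 2292 and 2600 in the parental libraries (the authors' deposited table: adjusted p = 0.00663). PSA1, which makes GDP-mannose, had means of 6298 in the ΔYGP1-labelled strain and 31022 in the parent, the widest gap of the list, without passing (the authors' deposited table: log2 fold change -2.30, adjusted p = 0.065). Its ΔYGP1-labelled libraries held 5471 and 7126, while the parental libraries could not be recovered. DPM1, which makes dolichol phosphate mannose itself, had a log2 fold change of -0.42 (the authors' deposited table: adjusted p = 0.398).

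Of 20 other Golgi mannosyltransferase genes 2 fell and 0 rose, with a median log2 fold change of -0.37. That share of lower calls is near the 10.3% of all listed features called lower. ANP1, a partner of Mnn9 in backbone synthesis, was 2.37-fold lower, with 1210 and 665.2 normalised reads in ΔYGP1-labelled libraries A and B against 2270 and 2175 in the parental libraries (the authors' deposited table: adjusted p = 0.000821). Its relative and fellow Mnn9 partner VAN1 had a log2 fold change of -0.46 and did not pass, as did MNN10 at -0.57, MNN11 at -0.48 and HOC1 at 0.30 (the authors' deposited table: adjusted p from 0.135 to 0.521). KTR4, of the KRE2/MNT1 family, was 1.84-fold lower, with 5856 and 6236 in the ΔYGP1-labelled libraries against 10982 and 11284 in the parental libraries (the authors' deposited table: adjusted p = 0.0111). KRE2 itself, which lengthens O-linked chains in the Golgi, had a log2 fold change of 0.44 (the authors' deposited table: adjusted p = 0.797).

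In the N-linked branch the medians of the 2 larger lists lay on opposite sides of 0. Their few calls stand beside 9.65% of all listed features called higher and 10.3% called lower. Of 14 genes that assemble the lipid-linked precursor 2 rose and 0 fell (median log2 fold change 0.37). ALG3, a mannosyltransferase of the ER lumen, was 2.23-fold higher and ALG7, which starts the precursor, 1.83-fold higher (the authors' deposited table: adjusted p = 0.0156 and 0.0492). ALG3 had 269.3 and 235.9 normalised reads in ΔYGP1-labelled libraries A and B against 119.5 and 106.9 in the parental libraries. Of 9 subunits of the oligosaccharyltransferase, which moves the precursor onto proteins, 2 fell and 0 rose (median -0.38): OST3 was 1.85-fold and OST4 1.79-fold lower (the authors' deposited table: adjusted p = 0.0202 and 0.0363). OST3 had 765.3 and 725.4 in the ΔYGP1-labelled libraries against 1326 and 1432 in the parental libraries. Of the 3 trimming enzymes ROT2, a glucosidase II subunit, was 2.62-fold lower, with 467.5 and 556.0 in the ΔYGP1-labelled libraries against 1188 and 1499 in the parental libraries (the authors' deposited table: adjusted p = 9.34e-05), and CWH41 and MNS1 did not pass.

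Of 11 genes for proteins known to carry O-linked mannose, 2 rose and 3 fell (median log2 fold change -0.16). Among all listed features 9.65% were called higher and 10.3% lower. The cell polarity protein gene AXL2 was 2.10-fold and the mating gene FUS1 2.02-fold higher (the authors' deposited table: adjusted p = 0.0366 and 0.0278). The chitinase gene CTS1 had means of 12256 in the ΔYGP1-labelled strain and 92722 in the parent (the authors' deposited table: log2 fold change -2.92, adjusted p = 0.0259). HSP150, a cell wall protein gene, had means of 88986 in the ΔYGP1-labelled strain and 170949 in the parent (the authors' deposited table: adjusted p = 0.0184). The libraries of CTS1 and HSP150 could not be recovered, so their spread between libraries is not known and neither was in the limma fits. KRE9, needed for beta-glucan synthesis, had means of 2624 in the ΔYGP1-labelled strain and 6318 in the parent (the authors' deposited table: adjusted p = 0.000135). Its recovered values were 2458 and 2790 in ΔYGP1-labelled libraries A and B against 6129 and 6508 in the parental libraries. The wall stress sensor genes WSC1 and MID2 had log2 fold changes of 0.02 and -0.19 in the authors' deposited table, and KEX2 and GAS1 -0.16 and -0.01, none of which passed.

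**Figure D4:**
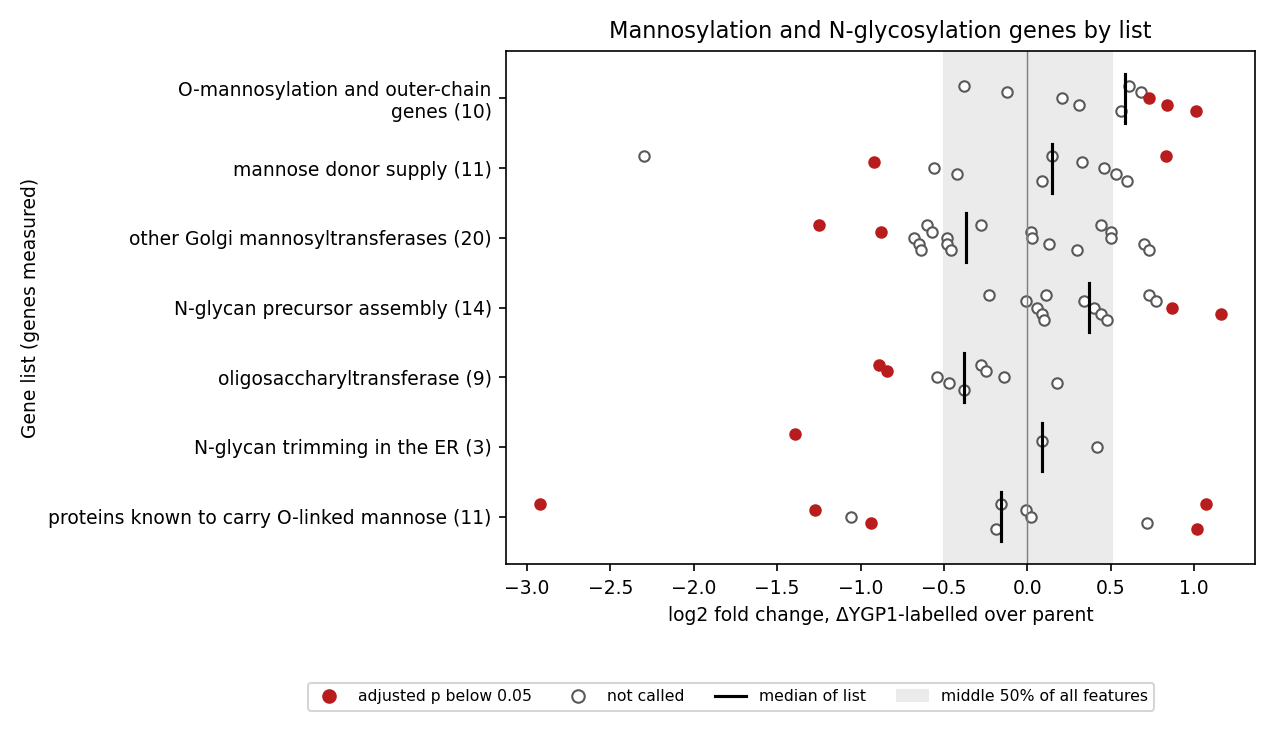
Authors' log2 fold change (ΔYGP1-labelled over parent) of each gene in the 10-gene set and in 6 lists of related genes; filled points were called at an adjusted p below 0.05, short lines are list medians and the grey band holds the middle part of all features. The 3 called genes of the 10-gene set lie to the right of 0, while the called genes of the other lists lie on both sides.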

How the data were processed

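TRIzol was used to extract total RNA and libraries followed standard Illumina procedures, per the labels. Not given in the sources used here: aligner, counter, build, strandedness and test. The authors made the deposited signal, headed as a read count per strain per the file headers, by dividing each library's read counts by a size factor and averaging the 2 libraries, as the values show. The authors deposited a log2 fold change (ΔYGP1-labelled over parent, which differs from the ratio of the means by at most 5e-05), p-values, adjusted p-values, and a call at an adjusted p below 0.05. Their calls are the main result.

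Each mean is a sum of whole reads of both libraries times 2 steps. The steps were fitted by least squares, giving size factors of 1.125 and 0.7968 (ΔYGP1-labelled A, B) and 1.155 and 0.9636 (parental A, B). Pairs of whole reads within 0.55 units of the last digit were unique for 95.6% of features in the ΔYGP1-labelled strain and 98.2% in the parent; of features above 20000, 0 of 161 and 81 of 195. Deliberately shifted means below 5000 could be solved in only 0.19% and 0.27% of cases. The added test was limma 3.58.1 in R 4.3.3 with an intensity trend, on features with a mean of at least 1, 2-sided. Recovery and limma were tested on simulated data. Fold changes are of means; those of limma, after adding 1, understate low features.

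Named genes are the 10 members, YGP1, PMT7 and the list genes past the threshold; others (PSA1, DPM1, VAN1, MNN10, MNN11, HOC1, KRE2, CWH41, MNS1, WSC1, MID2, KEX2, GAS1 and neighbours) were named after their values were seen. Members and lists were chosen with earlier results of these data known. IDs of 5869 of 6484 features matched R64, used for names, neighbours and coding lengths only, since the authors' build is not given. Promoters were not read and motifs not searched, because that build is not given and no promoter sequences were at hand.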

Additional observations from a re-analysis of the deposited data

How the results depend on the processing

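The precision is limited by 2 libraries per strain. In the authors' deposited table, at a stricter adjusted p of 0.01, 0 of the 10 genes passed (4 at an unadjusted p below 0.05, and 3 by limma at 0.05) and 4 of the 68 list genes. At 0.1 these were 4, PMT2 being added, and 18. Limma passed 3 of the 10 with a pseudocount of 10, without a filter, with a mean of at least 50 or with centred libraries, and 0 without the intensity trend (4 at an unadjusted p below 0.05), when the share of all features passing was 11.7%, against 28.7% with it. It passed 16 of the 64 list genes with recovered reads (25%, against 28.7% of all features), including all 12 of the authors' calls among them. Of those 12 it passed 3 without the intensity trend (ALG3, ROT2 and KRE9), 4 without parental library B, 10 without parental library A and 0 without either ΔYGP1-labelled library (with a mean of at least 50, 10 without library A and 11 without library B). Leaving out 1 library gave 0 to 5 of the 10 genes and a median log2 difference of 0.37 to 0.74, against 0.58 with all libraries; the highest count came without ΔYGP1-labelled library B among features with a mean of at least 50, a filter chosen after seeing the data. With that filter, leaving out ΔYGP1-labelled library A passed 3, where the mean of at least 1 passed 0 (0 of 6115 features, 2322 at an unadjusted p below 0.05), so the low features included decide those counts. Of 130 single-gene limma values 0 changed sign. A call was lost in 17, all of PMT1, PMT3 or PMT5, the only genes with a call to lose, and gained in 4. The 109 that kept their side of the threshold are mostly values of genes without a call. They include fits with the filter chosen after seeing the data, so their number does not show that the calls are stable. Equal totals moved all log2 fold changes up by 0.15, and other scalings of the strain means by 0.02 or less. No paired analysis was possible because neither the deposited columns nor the recovered libraries carry the replicate numbers of the labels.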
